A study of Mus musculus with 4 samples.

Results

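The cells described here are Lgr5 and Ascl2 positive crypt base cells of mouse mid-colon. They were chosen on their own counts of unique molecular identifiers (UMIs), each of which stands for 1 captured RNA molecule. A member held 500 UMIs or more from 250 or more genes, and mitochondrial genes gave no more than 25% of its UMIs. It also had at least 2 UMIs of Epcam, the epithelial adhesion molecule, none of Ptprc, which encodes the leukocyte antigen CD45, and at least 2 UMIs summed over Lgr5 and Ascl2. Less than 2% of its UMIs came from the 7 goblet cell genes Muc2, Fcgbp, Clca1, Zg16, Tff3, Spink4 and Agr2. Of 44356 cells past the first 3 limits, 778 were members, and 18968 other cells had at least 2 Epcam UMIs. The single-cell RNA libraries came from specific-pathogen-free mice aged 7 weeks. DSS 1 and DSS 2 came from mice that drank 3% dextran sulfate sodium (DSS), a polymer that injures the colonic epithelium, for 2 days. Control 1 and control 2 came from mice on clean water. The labels do not say that the libraries of a group came from separate animals, so p-values measure only the spread between these libraries.

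Lgr5 encodes a receptor for R-spondins, secreted proteins that amplify Wnt signalling by protecting Wnt receptors from degradation, and Ascl2 encodes a Wnt-responsive transcription factor of the intestinal stem cell. In the colon, cells that express both genes sit at the base of the crypt, divide, and feed a ladder of progenitors that mature as they climb toward the surface. Wnt, Notch and EGF signals are strong at the base and favour division, whereas BMP signals and differentiation genes increase toward the lumen.

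The files held 12778 barcodes in DSS 1 and 13093 in DSS 2, against 10966 in control 1 and 13014 in control 2. Their UMIs summed to 108941875 in DSS 1 and 109472082 in DSS 2, against 101051573 in control 1 and 101834659 in control 2. Any pair of libraries shared 36 to 52 barcodes, and no member barcode was shared. Predicted doublets were 2.92% to 5.38% of the cells of a library. DSS 1 stood apart in markers of immune cells. Of its 1465 cells with at least 2 Epcam UMIs, no Ptprc UMI and less than 2% goblet UMIs, called non-goblet epithelial cells below, 32.2% took at least 5% of their UMIs from immunoglobulin genes, against 3.28% in DSS 2, 1.01% in control 1 and 1.93% in control 2. These immunoglobulin-rich cells had a median of 3 Epcam UMIs in each library, and the other non-goblet cells had 48 in DSS 1 and 47 in DSS 2, against 30 in control 1 and 29 in control 2. Summed myeloid markers in non-goblet cells stood at 73.3 CPM in DSS 1 and 20.8 CPM in DSS 2, against 16.9 and 27.8 CPM in control libraries, and at 60.6, 18.7, 16.5 and 27.2 CPM in the same order without the immunoglobulin-rich cells. Only 1 member, in control 1, was immunoglobulin-rich.

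Nearly all members came from the control libraries. DSS 1 held no member among 2690 cells with at least 2 Epcam UMIs, which allows a share of up to 0.112%. DSS 2 held 1 member among 4652 such cells, a share of 0.0215% (95% exact Clopper-Pearson interval 0.000544% to 0.1197%). Control 1 held 464 among 5705 (8.13%, 7.44% to 8.87%) and control 2 held 313 among 6699 (4.67%, 4.18% to 5.21%). The intervals cover counting error only. Both DSS libraries lay far below both control libraries, and the control libraries also differed from each other. The mean share was 0.0108% ± 0.0152 in DSS libraries and 6.403% ± 2.45 in control libraries (SD, n = 2 each). The exact two-sided permutation test over libraries gave p = 0.333, the smallest value that 2 libraries against 2 allow. The share was among the results that led to the choice of these cells and is given as a description.

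**Figure D1:**
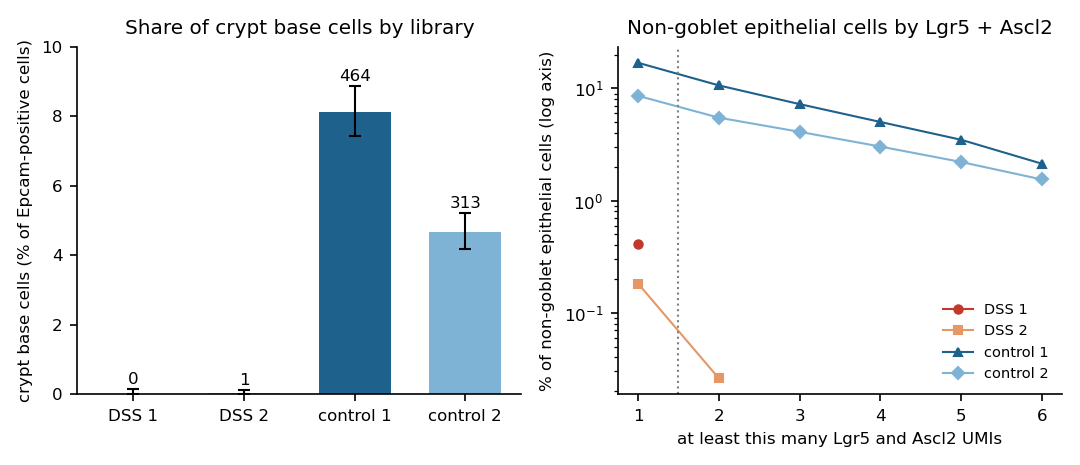
Left, members as a percent of cells with at least 2 Epcam UMIs in each library, with 95% exact Clopper-Pearson intervals as bars and the number of members above them; right, the percent of non-goblet epithelial cells (log axis) that held at least the number of Lgr5 and Ascl2 UMIs on the x axis, with a dotted line at the rule's threshold. DSS 1 and DSS 2 sit at 0% and 0.0215% on the left, below control 1 at 8.13% and control 2 at 4.67%, and lie below both control libraries at every number of UMIs on the right.

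The gap between the conditions was present on both sides of the 2-UMI threshold. Among non-goblet epithelial cells of the DSS libraries, 6 cells of DSS 1 and 6 cells of DSS 2 had exactly 1 UMI of Lgr5 or Ascl2, just outside the rule, and 1 cell of DSS 2 had 2. In the control libraries, 274 cells of control 1 and 177 of control 2 had 1 UMI, and 148 and 79 had 2, just inside it. Another 93 cells of control 1 and 88 of control 2 had 6 or more. Leukocytes were set beside the epithelial cells. In them Lgr5 had 0 UMIs in each DSS library and 1 in each control library. Ascl2 had 10 UMIs in DSS 1 and 1 in each of the other libraries. Whether these UMIs came from free RNA was not tested. Of cells with at least 2 Ptprc and no Epcam UMIs, 0.384% in DSS 1 and 0.080% in DSS 2 had a UMI of either gene, against 0.617% in control 1 and 0.363% in control 2, and none had 2. The share among non-goblet epithelial cells was 0.410% in DSS 1 and 0.182% in DSS 2, against 16.9% in control 1 and 8.60% in control 2. The DSS shares were thus near the leukocyte shares, although the non-goblet cells were deeper (medians of 17675 and 14528 UMIs in DSS 1 and DSS 2, against 4241 and 2830 in their leukocytes). In the control libraries the medians were 12611 and 9217 UMIs in non-goblet cells and 3127 and 2113 in leukocytes.

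The single DSS member held 34905 UMIs, more than 93.9% of the non-goblet cells of DSS 2. It had 1 UMI of Lgr5, 1 of Ascl2, 2 of Smoc2, none of Axin2 or Cdca7 and none of 10 mitotic genes, and it was predicted to be a doublet. Predicted doublets made up 27 of 464 members in control 1 and 21 of 313 in control 2. Some cells reached the Lgr5 and Ascl2 threshold but failed another condition, and these numbered 2 in DSS 1, 1 in DSS 2, 72 in control 1 and 75 in control 2. Most of those in the control libraries failed the goblet limit, which removed 54 and 43 cells. The 54 and 43 cells had medians of 34150 and 41303 UMIs and of 4.37% and 4.82% goblet UMIs, whereas members had medians of 0.109% and 0.106%.

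Members in the control libraries had a median of 3 UMIs of Lgr5 and Ascl2 together in control 1 and 4 in control 2, with maxima of 14 and 18. Both genes were seen in 57.8% of members in control 1 and 58.5% in control 2, Ascl2 alone in 29.09% and 30.03%, and Lgr5 alone in 13.2% and 11.5%. Members were deeper and held fewer mitochondrial UMIs than the other non-goblet epithelial cells of the same library, called the comparator cells. Their median depth was 15892 UMIs in control 1 and 17638 in control 2, against 11978 and 8757 in comparator cells. Mitochondrial UMIs were a median of 3.40% and 4.08% in members, against 5.85% and 10.6% in comparator cells. The rule on raw UMIs favours deep cells, so shares of cells with a UMI are given below after each cell was thinned to 3000 UMIs, which left out 2 and 3 members and 187 and 235 comparator cells.

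The other 3 genes that mark the crypt base were not used to choose the cells, and all 3 were higher in members than in comparator cells. Axin2, a Wnt target that feeds back to restrain the pathway, was seen in 28.6% of thinned members in control 1 and 28.1% in control 2, against 4.78% and 1.96% of comparator cells and 2.96% and 1.26% of leukocytes. Smoc2, a secreted matricellular protein of the stem cell signature, was seen in 26.2% and 33.9% of members, against 3.99% and 1.55% of comparator cells and 1.18% and 2.52% of leukocytes. Cdca7, a chromatin protein induced by Myc, was seen in 36.6% and 44.5% of members, against 7.61% and 2.99% of comparator cells and 2.37% and 0.629% of leukocytes. Members lay above both other cell groups for each gene in both libraries. Without thinning, 74.8% and 76.7% of members held Axin2, 70.3% and 77.6% held Smoc2, and 85.6% and 92.7% held Cdca7. In the DSS libraries, thinned non-goblet cells held Axin2 in 0.139% of cells of DSS 1 and 0.222% of DSS 2, below the 2.40% and 2.73% of their leukocytes.

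The marker genes were graded with the number of Lgr5 and Ascl2 UMIs in a cell. Levels are given as CPM, a gene's UMIs relative to all UMIs of the summed cells, after scaling by trimmed mean of M-values (TMM). Axin2 stood at 18.7 CPM in control 1 and 11.2 CPM in control 2 in non-goblet cells with no UMI of Lgr5 or Ascl2. It stood at 61.6 and 49.3 CPM in cells with 1 UMI, 79.6 and 86.9 CPM in cells with 2, and 118 and 117 CPM in cells with 3 or more. Cells just outside the rule therefore already held several times the Axin2 level of cells with none. Smoc2 followed the same order, with 13.9 and 8.28, 59.0 and 61.5, 89.6 and 101, and 129 and 139 CPM. The surface keratin Krt20 ran the other way, with 774 and 3099 CPM in cells with no UMI, 103 and 666 CPM with 1, 31.7 and 217 CPM with 2, and 36.1 and 151 CPM with 3 or more. Median depth also differed along this order, at 11523 and 8593 UMIs in cells with none and 16589 and 18111 UMIs in cells with 3 or more. Its part in the order was not tested.

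Members that held Lgr5 and members that held only Ascl2 differed in Smoc2. Smoc2 stood at 155 and 156 CPM in Lgr5-only members, 65.4 and 68.6 CPM in Ascl2-only members and 137 and 158 CPM in members with both genes. Ascl2-only members were lowest in both libraries. Axin2 differed less, with 104 and 98.1 CPM in Lgr5-only members, 90.4 and 79.8 CPM in Ascl2-only members and 117 and 128 CPM in members with both. These subsets were set by 1 or a few UMIs per cell and are described without a test.

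Many members were dividing. Cells with at least 5 UMIs summed over 10 mitotic genes, among them Mki67, Top2a and Cdk1, made up 33.8% of members in control 1 and 41.9% in control 2, against 11.5% and 2.82% of comparator cells. After thinning, with at least 2 UMIs required, the shares were 27.7% and 37.4% in members, against 10.5% and 2.83% in comparator cells. Comparator cells of the DSS libraries had 2.99% and 3.75% after thinning. Members thus stood above every other group, and the comparator cells of control 1 above those of the remaining 3 libraries. Within members, Axin2 and Smoc2 were not concentrated in cells on one side of the cycling limit. Axin2 stood at 96.4 and 116 CPM in cycling members and 115 and 104 CPM in the other members, with the order reversed between libraries. The ion cotransporter Slc12a2 was lower in cycling members, at 1066 and 1086 CPM, against 1454 and 1431 CPM in the other members.

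To describe the members' profile, UMIs were summed over members and over comparator cells of each control library, and 16289 genes were compared with edgeR's quasi-likelihood F test with the library as a block. The genes the rule used were left out of the test. At an adjusted p under 0.05, 2350 genes rose in members (14.4% of the genes tested) and 3318 fell (20.4%), and these shares are the background for each count below. The median log2 fold change over all genes was -0.05. Without the library block only 261 genes passed, and among cycling cells alone 1634 did. Lgr5 stood at 89.3 and 80.5 CPM in members and 2.09 and 1.72 CPM in comparator cells, a difference that the rule itself made.

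Among genes with at least 50 CPM in the higher group, those with the largest increases were a mix of stem cell markers, ion and water channels and genes with no place on a list used here. Fut9, a fucosyltransferase, stood at 70.9 and 64.1 CPM in members, against 11.2 and 4.92 CPM in comparator cells (log2 fold change 3.18 ± 0.33 SE, edgeR adjusted p = 1.77e-19). Rgcc, a regulator of the cell cycle, stood at 246 and 272 CPM in members, against 31.0 and 26.8 CPM (3.16 ± 0.34, adjusted p = 2.88e-18). Smoc2 stood at 106 and 120 CPM, against 16.5 and 10.5 CPM (3.09 ± 0.32, adjusted p = 1.52e-19). In each case members of both libraries lay above the comparator cells of both. Axin2 stood at 96.5 and 101 CPM in members, against 20.7 and 12.1 CPM in comparator cells (2.64 ± 0.32, adjusted p = 6.65e-15). Cdca7 stood at 144 and 157 CPM, against 39.7 and 20.2 CPM (2.41 ± 0.32, adjusted p = 4.12e-12). Among cycling cells alone the same differences were smaller, at 1.86 for Fut9, 1.96 for Rgcc, 1.74 for Smoc2, 1.65 for Axin2 and 0.94 for Cdca7.

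Genes of epithelial transport and barrier made up part of the rest of this group. The chloride-channel-associated genes Clca3b and Clca3a2 had log2 fold changes of 2.54 and 2.63. Cldn2, a claudin that forms cation and water pores and is known from crypts, stood at 177 and 160 CPM in members, against 63.5 and 19.9 CPM in comparator cells (2.24, adjusted p = 3.43e-10). Nox1, a superoxide-producing oxidase of the colonic crypt, stood at 77.0 and 79.6 CPM, against 19.0 and 9.42 CPM (2.55, adjusted p = 9.79e-14). Aqp1, which encodes a water channel, had a log2 fold change of 2.27, the cysteine dioxygenase gene Cdo1 2.34, the transthyretin gene Ttr 2.30 and Bex4 2.60. Sox4, a transcription factor of progenitors, and Cd44, a Wnt target and hyaluronan receptor, had 2.37 each. Each of these genes passed the test and lay higher in members of both libraries than in comparator cells of either.

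**Figure D2:**
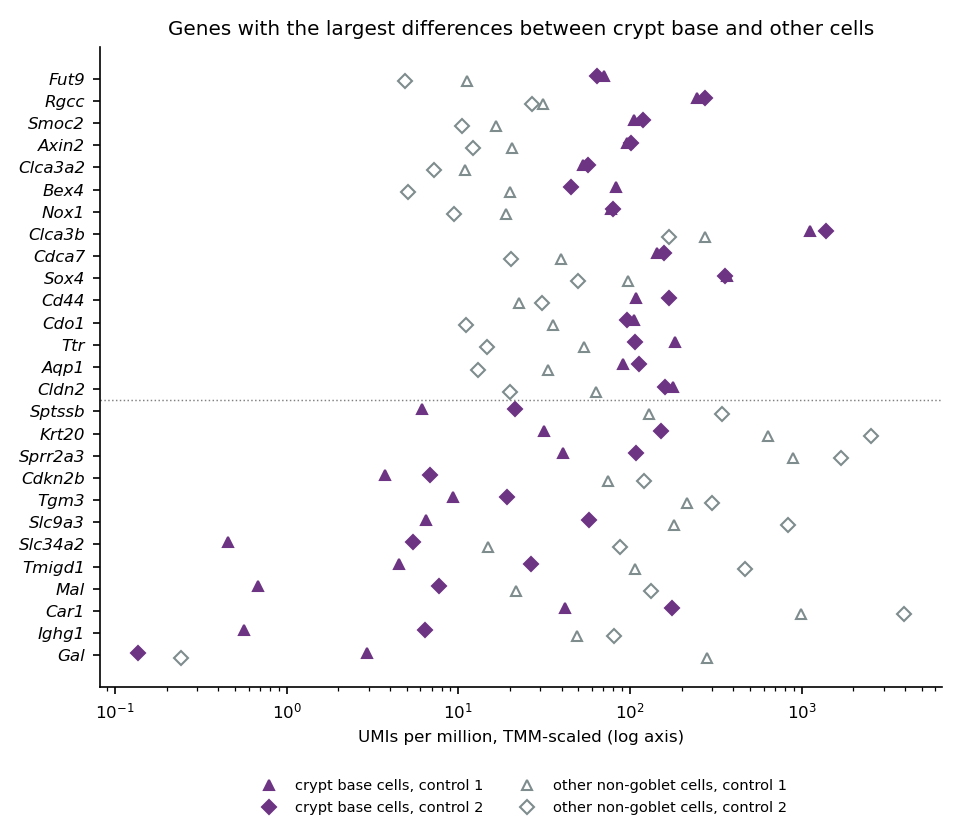
CPM (x axis, TMM-scaled, log axis) of the genes with the largest differences (y axis) in members (filled) and comparator cells (open) of control 1 (triangles) and control 2 (diamonds). Above the dotted line members of both libraries lie to the right of the comparator cells, below it they lie to the left, and Gal has one comparator value, 283 CPM in control 1, far from the other at 0.243 CPM.

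**Figure D3:**
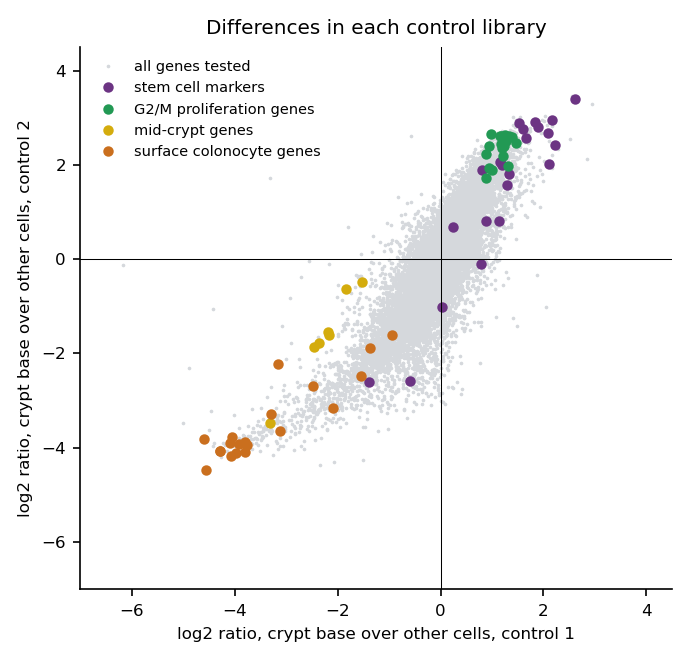
Log2 ratio of members over comparator cells in control 1 (x axis) and control 2 (y axis) for the genes tested (grey) and for 4 gene lists (coloured). Stem cell markers and G2/M genes lie mostly in the upper right, and mid-crypt and surface colonocyte genes in the lower left.

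Of the list of stem cell markers, 17 of 22 measured genes rose and 2 fell, with a median log2 fold change of 1.65 (0.86 among cycling cells). The most abundant was Slc12a2, a basolateral ion cotransporter, with 1165 and 1156 CPM in members, against 406 and 154 CPM in comparator cells (2.21 ± 0.42, adjusted p = 1.93e-06). After thinning it was seen in 97.0% and 95.8% of members, against 35.0% and 11.7% of comparator cells. Mex3a, an RNA-binding protein, had a log2 fold change of 2.93 and Lrig1, which restrains EGF receptor signalling, 2.18. The 2 that fell were Prom1, which encodes the membrane protein prominin-1, at 80.2 and 89.3 CPM in members, against 211 and 550 CPM (-2.01, adjusted p = 2.44e-07), and the serine protease gene Prss23 (-1.64). Ets2, Igfbp4 and Msi1 did not pass the test. Of 5 genes known from reserve or slow-cycling stem cells, which include Mex3a of the stem cell list, 4 rose, with a median of 2.18. They included Hopx, with 129 and 105 CPM in members, against 39.3 and 15.6 CPM in comparator cells (2.23, adjusted p = 6.44e-11), and Tert, the telomerase reverse transcriptase gene (1.54, adjusted p = 0.0204). Bmi1, a Polycomb gene, had 9.29 and 11.6 CPM in members and 8.05 and 11.3 CPM in comparator cells and did not pass (adjusted p = 0.840).

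Wnt target and feedback genes were higher in members, while the receptors and transducers of the pathway were mixed. Of the targets, 12 of 14 rose and none fell, with a median of 1.76 (0.72 among cycling cells). Axin2, Ephb3 and Cd44 are also on the list of stem cell markers, so the counts of these lists are not separate. Rnf43 and Znrf3, ubiquitin ligases that remove Wnt receptors, had log2 fold changes of 1.78 each, and Myc, which drives growth, 1.75. Sox9, a transcription factor of crypt progenitors, stood at 288 and 273 CPM in members, against 128 and 64.5 CPM in comparator cells (1.62, adjusted p = 1.54e-05), and the cyclin gene Ccnd1 had 1.56. Notum, which encodes a secreted Wnt deacylase, passed with under 1 CPM in each sum (2.62, adjusted p = 0.00789), whereas Nkd1 (0.15, adjusted p = 0.858) and Apcdd1 (-1.62, adjusted p = 0.1249) did not pass. Of the receptors and transducers, 4 of 19 rose and 4 fell, with a median of -0.09. Fzd7, a Wnt receptor, stood at 20.2 and 30.5 CPM in members, against 9.16 and 8.82 CPM in comparator cells (1.47, adjusted p = 0.000194). Tcf7l2, a transcription factor that acts at Wnt targets, stood at 90.6 and 116 CPM in members, against 288 and 692 CPM (-2.12, adjusted p = 1.04e-07). The others that rose were Fzd2 (1.24), Lrp5 (0.94) and Bcl9l (0.97). The others that fell were the R-spondin receptor gene Lgr4 (-0.85), the Wnt receptor gene Fzd5 (-1.13) and Ctnnb1, which encodes beta-catenin (-1.05, adjusted p = 0.0149).

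Of 14 Notch pathway genes measured, 6 rose and 1 fell, with a median of 0.55. The receptor gene Notch1 stood at 58.7 and 73.0 CPM in members, against 18.4 and 10.9 CPM in comparator cells (2.20, adjusted p = 1.90e-10). Lfng, a glycosyltransferase that modifies Notch, had a log2 fold change of 2.38, and Hes1, a target that keeps cells from the secretory fate, stood at 417 and 485 CPM, against 194 and 169 CPM (1.31, adjusted p = 0.00118). The 1 that fell was the receptor gene Notch3, also listed among muscle and mural markers, at 0.340 and 0.408 CPM in members, against 1.697 and 5.999 CPM (-3.17, adjusted p = 6.20e-05). Of the ligands, Dll4 rose (1.57, adjusted p = 0.0192), while Dll1 (-0.54, adjusted p = 0.489) and Jag1 (0.16, adjusted p = 0.791) did not pass. No BMP pathway gene rose and 6 of 13 fell, with a median of -0.65. The ligand gene Bmp2 stood at 6.34 and 9.12 CPM in members, against 28.6 and 82.9 CPM in comparator cells (-2.69, adjusted p = 2.70e-13), and the targets Smad7 and Id3 had -1.54 and -1.39. The receptor gene Bmpr1a did not pass (-0.25, adjusted p = 0.551). Of 13 EGF family genes, 2 rose and 7 fell, with a median of -0.95. The ligand gene Areg stood at 91.9 and 194 CPM in members, against 391 and 1227 CPM in comparator cells (-2.38, adjusted p = 2.30e-08), and the receptor gene Erbb2 fell as well (-1.44). The 2 that rose were Etv4 (2.47) and Etv5 (1.74), transcription factors induced by receptor tyrosine kinase signals. Etv4 stood at 33.2 and 43.6 CPM in members, against 7.86 and 5.98 CPM in comparator cells.

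Genes of DNA replication, mitosis and ribosome assembly rose together in members. Of G1/S genes, 18 of 21 rose and none fell, with a median of 1.65, among them the replicative helicase gene Mcm6 (78.2 and 92.3 CPM in members, against 33.1 and 14.6 CPM in comparator cells). Pcna, the sliding clamp gene, did not pass, with 120 and 169 CPM in members and 81.8 and 91.9 CPM in comparator cells (0.71, adjusted p = 0.0587). All 19 measured G2/M genes rose, with a median of 1.87, among them the topoisomerase gene Top2a (200 and 238 CPM in members, against 78.3 and 38.0 CPM). Of ribosome biogenesis genes, 14 of 16 rose, with a median of 1.52, among them Ncl, the nucleolin gene, at 778 and 1064 CPM, against 343 and 270 CPM (1.58, adjusted p = 0.000431). Where only cycling cells were compared, the medians were 0.18, 0.24 and 0.28, and 10 of the G2/M genes define that gate. With the gate these medians lay nearer to 0 than those of the stem cell markers (0.86) and Wnt targets (0.72). The gate also moved the medians of stem cell markers, Wnt targets and surface colonocyte genes toward 0. The part of the larger share of dividing cells among members was not tested.

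**Figure D4:**
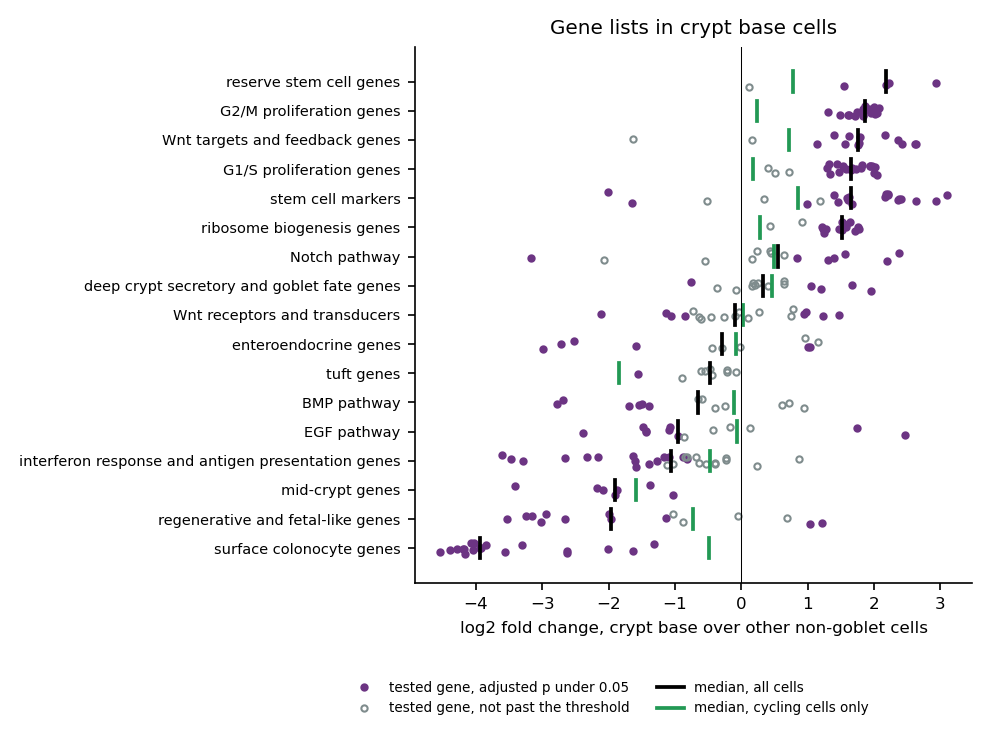
Log2 fold change of members over comparator cells (x axis) for each tested gene of 17 lists (y axis), filled where the adjusted p was under 0.05; black bars are list medians in all cells and green bars list medians among cycling cells only. Stem cell markers and Wnt targets have green bars at 0.86 and 0.72, and proliferation and ribosome biogenesis genes have theirs at 0.18 to 0.28.

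Differentiation genes were lower in members. All 20 surface colonocyte genes fell, with a median of -3.94. Guca2a, the guanylin gene, stood at 292 and 435 CPM in members, against 5709 and 7326 CPM in comparator cells (-4.18, adjusted p = 6.86e-11). Krt20 stood at 31.4 and 152 CPM in members, against 633 and 2549 CPM in comparator cells (-4.20 ± 0.46, adjusted p = 7.59e-18). Car1, a carbonic anhydrase of colonocytes, stood at 41.6 and 176 CPM, against 996 and 3932 CPM (-4.53, adjusted p = 1.92e-17). Lypd8, which keeps flagellated bacteria away from the epithelium, had -3.84. The chloride exchanger gene Slc26a3 (-4.08) and the water channel gene Aqp8 (-3.94) also fell. The other genes with the largest decreases were Sptssb, Sprr2a3, Cdkn2b, Tgm3, Slc9a3, Slc34a2, Tmigd1 and Mal, with log2 fold changes of -4.38 to -4.19. For Guca2a, Krt20, Car1, Slc26a3 and Aqp8, members of control 2 lay above those of control 1, as did the comparator cells of control 2. Summed over the 20 genes, members held 2670 and 6062 CPM, against 21924 and 45287 CPM in comparator cells. Among cycling cells alone 11 of 19 fell and the median was -0.49. All 7 mid-crypt genes fell, and their median was -1.90 in all cells and -1.58 among cycling cells. The water channel gene Aqp4 stood at 182 and 156 CPM in members, against 828 and 476 CPM in comparator cells (-1.90, adjusted p = 4.97e-06), and Selenbp1, a selenium-binding protein, had -3.41. Of 12 general epithelial genes 9 fell and none rose, including the keratin gene Krt8 (-1.96) and the galectin gene Lgals4 (-1.87).

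Secretory genes gave a less uniform picture. Of 14 genes of deep crypt secretory and goblet fate outside the rule, 4 rose and 1 fell, with a median of 0.32. Foxa3, a transcription factor of the secretory lineage, stood at 44.9 and 46.8 CPM in members, against 13.2 and 10.7 CPM in comparator cells (1.95, adjusted p = 4.20e-08). Kit, a receptor kinase found on deep crypt secretory cells, had a log2 fold change of 1.67, but -0.64 when all other cells with at least 2 Epcam UMIs were the comparator. Atoh1, which drives the secretory fate, did not pass (0.64, adjusted p = 0.290), nor did Reg4 (0.18, adjusted p = 0.713), a marker of deep crypt secretory cells. Of 11 enteroendocrine genes 4 fell, Chga (-1.58), Chgb (-2.72), Sct (-2.52) and Tph1 (-2.99), and 2 passed as higher, Cck (1.01) and Gcg (1.03). Gcg, the glucagon gene, stood at 109 and 373 CPM in members, against 164 and 59.9 CPM in comparator cells, so the libraries went opposite ways, and its sign turned in other settings (-1.75 in members with at least 3 UMIs). Of 9 tuft cell genes 1 fell, Ptgs1 (-1.56).

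Injury-related and immune-related genes were low in members. Of 15 regenerative or fetal-like genes, 2 rose and 9 fell, with a median of -1.97. The 2 that rose were the keratin gene Krt7 (1.21) and Ccn1 (1.04), a matricellular protein. S100a6, a calcium-binding protein, had -2.65. Ly6a, which encodes Sca-1, stood at 28.3 and 29.1 CPM in members, against 210 and 351 CPM in comparator cells (-3.24, adjusted p = 3.28e-18). Anxa1, an annexin, fell as well (-1.97), and Clu, the clusterin gene, did not pass (-0.88, adjusted p = 0.171). Of 28 interferon and antigen presentation genes, none rose and 15 fell, with a median of -1.06. The class I genes H2-K1 (-1.64) and B2m (-1.17) were among them. Isg15, an interferon-induced modifier, stood at 1.13 and 3.40 CPM in members, against 14.7 and 33.7 CPM (-3.47, adjusted p = 2.29e-14). Of 12 p53 targets, Aen (1.39) and Eda2r (1.93) rose and 4 fell, among them the cell cycle inhibitor gene Cdkn1a, at 33.9 and 121 CPM in members, against 466 and 1425 CPM (-3.67, adjusted p = 6.96e-17). Fatty acid oxidation genes fell in 7 of 14 cases and rose in none. Of 14 early response genes 1 rose, Nr4a1 (1.15), and 4 fell, Junb, Jund, Dusp1 and Zfp36 (-1.45 to -0.90).

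Genes of B and plasma cells, fibroblasts and muscle were lower in members than in the comparator cells. All 6 B and plasma cell genes, 8 fibroblast genes and 7 muscle genes measured fell, as did 5 of 7 myeloid genes, 2 of 8 T cell genes, 1 of 6 endothelial genes (Pecam1) and 1 of 3 glial and neuronal genes (Uchl1), and none rose. The T cell and endothelial counts are close to the share of all genes that fell, 20.4%. Summed T cell markers stood at 3.54 and 4.18 CPM in members, against 3.56 and 7.34 CPM in comparator cells, and glial and neuronal markers at 7.08 and 3.51 CPM, against 12.45 and 2.66 CPM. Summed B and plasma cell markers stood at 636 and 1836 CPM in members, against 6024 and 11346 CPM in comparator cells. Ighg1, an immunoglobulin heavy chain gene, was among the 12 largest decreases (-4.60) and no longer passed without the immunoglobulin-rich cells. The galanin gene Gal, which led the decreases among genes reaching 50 CPM in either group (-6.40), came from 1 library. Gal stood at 2.95 and 0.136 CPM in members, against 283 and 0.243 CPM in comparator cells, and DESeq2 gave an adjusted p of 0.106.

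Because DSS libraries held almost no members, the crypt base genes were next compared in all non-goblet epithelial cells, chosen without regard to Lgr5 or Ascl2. Lgr5 had 1 UMI in DSS 1 and 3 in DSS 2, against 884 in control 1 and 669 in control 2. Ascl2 had 5 and 5 UMIs in the DSS libraries, against 1230 and 928 in the control libraries. Both genes were near 0 in each DSS library, and because they chose the members no test is given. Axin2 had 19 and 31 UMIs in the DSS libraries, against 1802 and 1290 in the control libraries, or 0.773 and 0.512 CPM against 28.8 and 20.2 CPM (log2 fold change -5.28 ± 0.42, edgeR adjusted p = 0.0691). Smoc2 stood at 5.53 and 3.42 CPM in DSS libraries, against 27.1 and 21.1 CPM in control libraries (-2.44 ± 0.37, adjusted p = 0.578), and Cdca7 at 5.53 and 7.70 CPM, against 49.5 and 32.4 CPM (-2.63 ± 0.36, adjusted p = 0.544). Both DSS libraries lay below both control libraries for all 3 genes, but none of the 3 passed. The share of all genes that lay this way is not given here. In such sums, fewer cells of a type and less RNA per cell cannot be told apart.

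None of the 18048 genes passed an adjusted p of 0.05 in this comparison with edgeR (0.0%), although 1116 had an unadjusted p under 0.05. Of stem cell markers, 11 of 22 were lower in DSS libraries at that unadjusted level and none was higher, where 3.56% of all genes were lower and 2.62% higher. DESeq2 called 7 of the 22 lower, where it called 0.77% of all genes lower. It gave adjusted p-values of 1.33e-22 for Axin2, 8.35e-05 for Smoc2 and 4.44e-06 for Cdca7, so the call depends on the tool. Fut9, which led the increases in members among genes with at least 50 CPM, stood at 0.935 and 0.215 CPM in DSS libraries, against 18.2 and 10.8 CPM in control libraries.

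A search on the other markers gave a similar contrast. Non-goblet cells with at least 2 UMIs summed over Axin2 and Smoc2 numbered 18 in DSS 1 (1.23%) and 40 in DSS 2 (1.04%), against 751 in control 1 (17.2%) and 448 in control 2 (7.86%). Of these, 1 in DSS 2, 357 in control 1 and 255 in control 2 were also members. After thinning, the shares were 0.0696% and 0.139% in DSS libraries, against 2.83% and 1.78% in control libraries. Both DSS libraries lay below both control libraries with and without thinning. Cells over the goblet limit were outside the rule. In them Lgr5 had 1 UMI in each DSS library, against 109 in control 1 and 79 in control 2. Without TMM scaling this was 0.1497 and 0.1269 CPM in DSS libraries, against 4.41 and 9.69 CPM in control libraries.

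Dividing cells were present in every library, which allowed crypt base genes to be compared among cycling non-goblet cells. There were 50 such cells in DSS 1 and 169 in DSS 2, against 606 in control 1 and 283 in control 2. No cycling cell was a member in DSS 1 or in DSS 2, which allows shares of up to 6% and 1.775%. These limits cover counting error only. Members made up 25.9% of the cycling cells of control 1 and 46.3% of those of control 2. Lgr5 and Ascl2 had no UMI in either DSS library, against 303 and 288 UMIs of Lgr5 and 419 and 403 of Ascl2 in the control libraries. If the DSS libraries together are set at a floor of 3 UMIs, Lgr5 was at least 67.1-fold lower in them and Ascl2 at least 93.3-fold lower, per UMI summed over all genes and without TMM scaling. Without the immunoglobulin-rich cells described next, the bounds were 56.65 and 78.54. All these bounds pool the UMIs of both DSS libraries and leave out the spread between libraries. Both genes chose the members, so the bounds are a description only.

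Axin2 had 0 and 3 UMIs in cycling cells of the DSS libraries, against 582 and 524 in control libraries, or 0.000 and 0.550 CPM against 43.5 and 69.4 CPM (-6.89 ± 0.60, edgeR adjusted p = 0.0517, DESeq2 adjusted p = 3.78e-09). Smoc2 stood at 5.21 and 11.6 CPM in DSS libraries, against 43.9 and 86.3 CPM in control libraries (-2.79, edgeR adjusted p = 0.126), and Cdca7 at 25.03 and 22.38 CPM, against 83.1 and 118 CPM (-2.09, adjusted p = 0.114). The groups did not overlap for any of the 3 genes, and 20.0% of all genes had both DSS libraries below both controls. None of the 3 passed edgeR's threshold. No gene of 12325 did (0.0%, smallest adjusted p = 0.0517), while 1105 had an unadjusted p under 0.05 and DESeq2 called 118. Leaving out DSS 1 gave 437 calls and leaving out DSS 2 gave 781, with 1 DSS library then assumed to vary like the controls.

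Stem cell markers made up many of the lower genes in cycling DSS cells. At an unadjusted p under 0.05, 14 of 20 were lower and none higher, where 3.81% of all genes were lower and 5.16% higher. In 16 of 20 both DSS libraries lay below both controls, which held for 20.0% of all genes, while 19.1% lay above. DESeq2 called 8 of the 20 lower, where it called 0.495% of all genes lower. None of the 21 G1/S genes was lower at the unadjusted level, and their median log2 fold change was -0.30, in cells that were all chosen on mitotic genes. Immunoglobulin-rich cells were concentrated in DSS 1. They were 32 of 50 cycling cells in DSS 1 and 7 of 169 in DSS 2, against 4 of 606 in control 1 and 13 of 283 in control 2. B and plasma cell markers summed to 263507 CPM in DSS 1 and 8387 CPM in DSS 2, against 2329 and 15082 CPM in control libraries.

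With immunoglobulin-rich cells left out, a step added after seeing the data, 18 and 162 cycling cells remained in the DSS libraries, against 602 and 270 in the control libraries. DSS 1 then fell under the minimum of 30 cells set for this comparison. With edgeR, 71 genes fell in DSS libraries (0.587% of 12090) and 57 rose (0.471%). Lgr5 and Ascl2, which chose the members, are among the 71 and are read as a description only. Axin2 had 0 and 3 UMIs, against 581 and 524 (-6.79 ± 0.58, adjusted p = 0.000306). Smoc2 (-2.65, adjusted p = 0.00899) and Cdca7 (-1.87, adjusted p = 0.0226) fell as well. Of stem cell markers 11 of 20 fell and none rose, and of Wnt targets 4 of 11 fell. Axin2, Ephb3 and Cd44 fell and are on both lists, so these counts are not separate. Summed levels of some other lists, given without a test, were higher in the same cells of both DSS libraries. The surface colonocyte genes stood at 7247 and 11175 CPM in DSS libraries, against 3235 and 6403 CPM in control libraries, myeloid markers at 57.8 and 26.1 CPM, against 16.6 and 14.5 CPM, and T cell markers at 16.25 and 10.9 CPM, against 1.76 and 5.40 CPM. In DSS 1, 6 of 9 T cell markers and 3 of 10 myeloid markers were at 0, and the sums were 9 and 32 UMIs. Mid-crypt genes were also higher in both DSS libraries. Enteroendocrine genes were lower, at 1.805 and 29.03 CPM, against 34.41 and 1071 CPM. Tuft genes (5.415 and 2.525 CPM, against 15.85 and 40.14 CPM) were lower as well. Endothelial markers stood at 3.61 and 5.891 CPM, against 7.843 and 6.578 CPM, so DSS 2 lay close to control 2. In DSS 1 the enteroendocrine, tuft and endothelial sums were 1, 3 and 2 UMIs. There 11 of 12, 7 of 10 and 6 of 7 of these genes were at 0. The sums of B and plasma cell, fibroblast, muscle and glial markers overlapped between conditions. The part of these cell types in the result was not tested. Rgcc stood at 3.77 and 2.96 CPM in DSS libraries, against 101 and 211 CPM in control libraries (-5.65, adjusted p = 0.000306), and Hopx at 15.1 and 6.97 CPM, against 83.8 and 94.3 CPM (-3.35, adjusted p = 0.00125). None of the 21 G1/S and 9 G2/M genes tested fell or rose. The cells of every library were chosen on mitotic genes, so this does not compare proliferation between conditions. With all cells, Rgcc had stood at 78.22 and 4.403 CPM in DSS libraries, so its difference was much larger without the immunoglobulin-rich cells, and the same held for Cd44 (-0.23 with them, -1.78 without).

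Other genes that fell in these cycling cells were Lsr, a tight junction receptor (-3.14), the sorbitol dehydrogenase gene Sord (-2.89), the cell cycle kinase gene Cdk6 (-2.86), Rnf43 (-2.67) and the guidance receptor gene Ephb3 (-2.64). Reg3b, an antimicrobial lectin, led the increases among genes reaching 50 CPM in either condition, with 458 and 2035 CPM in DSS libraries, against 0.908 and 4.69 CPM in control libraries (8.94 ± 0.86, adjusted p = 0.000488). Iglc2, an immunoglobulin light chain gene, was still higher in DSS libraries after the immunoglobulin-rich cells were left out, with 260 and 24.7 CPM, against 1.07 and 7.65 CPM (5.01, adjusted p = 0.0302). Others high on the same list of increases were Reg3g (5.15), Apol10a (2.77) and Gda (2.67). Ly6a, low in members, stood at 341 and 809 CPM in DSS libraries, against 62.5 and 85.9 CPM in control libraries (2.97, adjusted p = 0.00393). Of regenerative genes 5 of 14 rose, and of interferon and antigen presentation genes 4 of 25.

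The control cycling cells included the members, so the comparison was repeated without them as well. The control libraries then kept 446 and 139 cycling cells, and 14 genes passed. With immunoglobulin-rich cells kept, leaving out members gave 0 calls with edgeR and 626 genes at an unadjusted p under 0.05. Without either group of cells, Axin2 had 0 and 3 UMIs in DSS libraries, against 259 and 131 in control libraries (-5.91, adjusted p = 0.00749). Hopx (-3.06, adjusted p = 0.0109), Cdk6 (-2.34, adjusted p = 0.0109) and Rgcc (-4.61, adjusted p = 0.0105) also fell. Axin2, Hopx, Cdk6 and Rgcc thus fell in dividing DSS cells also when they were set against dividing control cells with at most 1 UMI of Lgr5 and Ascl2.

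**Figure D5:**
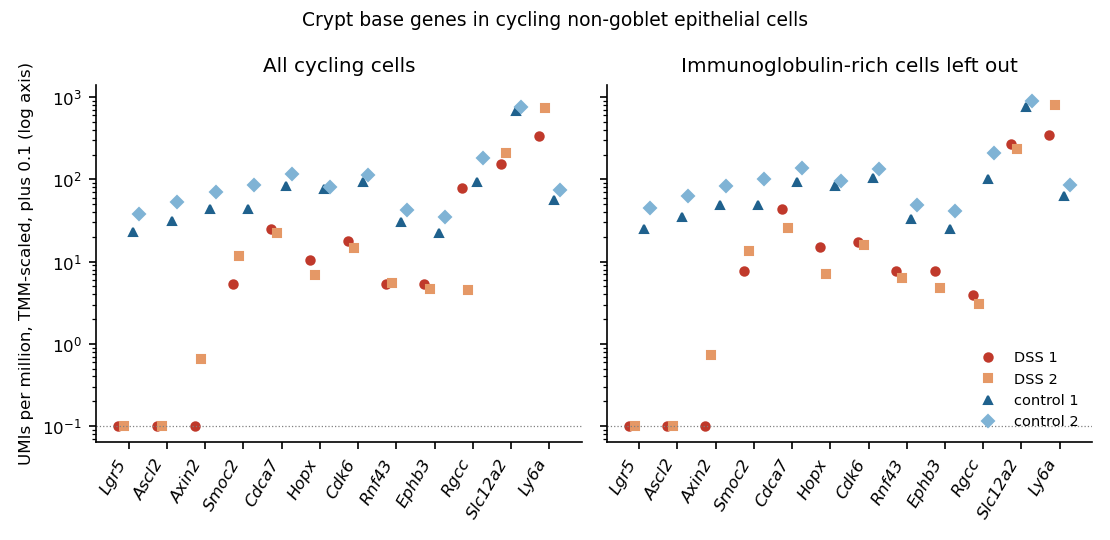
CPM (y axis, TMM-scaled, plus 0.1, log axis) of 12 genes (x axis) in cycling non-goblet cells of each library, with all such cells on the left and immunoglobulin-rich cells left out on the right; a point on the dotted line is a gene at 0 UMIs. With those cells left out Axin2 lies at 0 and 0.633 CPM in DSS libraries, against 48.0 and 81.8 CPM in control libraries, and Ly6a alone of the 12 lies higher in both DSS libraries.

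On the GRCm38 assembly, Lgr5 lies on chromosome 10 from 115450311 to 115587780 and Ascl2 on chromosome 7 from 142966829 to 142969264, both on the minus strand. Axin2 lies on chromosome 11 from 108920349 to 108950783, Smoc2 on chromosome 17 from 14279506 to 14404790 and Cdca7 on chromosome 2 from 72476159 to 72486893, all on the plus strand. The counts are per gene and do not separate exons or transcript isoforms.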

How the data were processed

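The deposited files hold, per library, a matrix of raw counts of UMIs per gene and cell barcode. Per the submitters' processing notes they were made with Cell Ranger 6.1.1 on GRCm38. The count tables were used as deposited, with 55450 genes. Members, lists and tests were chosen with earlier results of these data known, so no list is independent support. Predicted doublets (Scrublet in scanpy 1.11.5) were kept and left out in an alternative.

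UMIs were summed per library and cell group and tested in R 4.3.3 with the quasi-likelihood F test of edgeR 4.0.16, after filterByExpr and TMM scaling, with Benjamini-Hochberg adjustment over all genes tested and a threshold of 0.05. DESeq2 1.42.0 was an alternative. Fold changes are log2 values with the standard error of the fit. The 11 genes of the rule and 37 mitochondrial genes were left out of the profile test after scaling. Between conditions Lgr5 and Ascl2 stayed in the fit and its counts. The text gives no p-value for them, and where they are named as passing this is a description only. The other 9 and the mitochondrial genes were left out, and the 10 mitotic genes also where they chose the cells. CPM values are TMM-scaled, except summed marker CPM and the Lgr5 CPM of cells over the goblet limit, which are not. The scripts were tested on simulated data.

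Named genes are the 5 markers, the 15 largest increases and 12 largest decreases past the threshold with at least 50 CPM in the higher group and the same direction in both libraries, and up to 4 called genes of each list by CPM (6 genes a direction between conditions). Other list genes named in the text, among them Aqp8, Slc26a3, Etv4, Isg15, Lfng, Myc and every gene given as not passing, were picked after their values were seen. No DSS gene passed in the planned fit, so that rule was applied to the fit without immunoglobulin-rich cells (at least 5% of UMIs from 432 immunoglobulin genes). The fits that leave those cells out were added after seeing the data. Replicate numbers were not used to pair libraries in the main fits. Same-numbered deviations from group means correlated at 0.248 in non-goblet cells and -0.011 in cycling cells. With 2 libraries per group these values cannot decide whether libraries were paired. With 2 libraries per group the precision rests on few libraries, whatever their depth.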

Additional observations from a re-analysis of the deposited data

How the results depend on the processing

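The difference in member share, -6.39 percentage points, kept its direction under each setting tried. It was -9.94 with 1 UMI of Lgr5 and Ascl2 required, -9.52 with at most 10% mitochondrial UMIs, -1.07 after thinning and -3.94 over all cells, and -8.12 to -4.66 when a library was left out. In the profile, 5668 genes passed, 1634 among cycling cells, 261 with no replicate block and 4044 to 5827 under the other tests; with 1 control library left no test was possible. Among non-goblet cells, 0 genes passed, but 222 did with DESeq2, 1 without immunoglobulin-rich cells (Ascl2, which chose the members), and 0 to 394 when a library was left out (394 without DSS 2, 68 without DSS 1, 1 without control 2 and 0 without control 1). Among cycling cells, 0 passed, but 118 did with DESeq2, 598 with no filter on low counts, 5 without predicted doublets, 128 without immunoglobulin-rich cells, 14 without those and members (0 without members alone), 3 with a gate of 10 UMIs, and 0 to 781 when a library was left out. The causes were not tested.

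With the replicate number as a block, 5 genes passed among non-goblet and 7 among cycling cells, Lgr5 and Ascl2 among them. As these genes chose the members, their passing is a description only. Axin2 passed among non-goblet and among cycling cells, at edgeR adjusted p = 0.00817 and 0.0130. As far as is known the libraries share only a number, so this is not read as a paired analysis.

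Some named genes changed direction in the profile. Among cycling cells alone these were Ccnd2 (-0.14), Erbb3 (0.16), Creb3l1 (-0.20), Chga (0.54), Pmaip1 (0.47), Mdm2 (0.31), Acta2 (0.30) and Tagln (0.25). With all other Epcam cells as comparator they were Creb3l1 (-0.29) and Kit (-0.64). Gcg had -1.36 in cells of 5000 to 20000 UMIs, -1.75 in members with at least 3 UMIs, -0.58 without control 2 and 2.62 without control 1. Of the other values of named genes, 1613 kept direction and side of the threshold, 229 lost significance and 22 moved.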
